A study of Neodesmus pupukensis with 4 samples.

Results

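Between 45 h and 57 h of culture, 38 groups of related transcript sequences of a green microalga held sequences that went opposite ways, with at least 1 sequence 2-fold or more higher and at least 1 sequence 2-fold or more lower at 57 h. The data are read counts on 14905 assembled transcript sequences. The sequences fall into 6216 components, a component being all sequences whose identifier is the same up to its final sequence number. A sequence was kept when its mean read count over the 45 h and 57 h libraries was at least 10, which left 13963 of the 14905. The ratio of 57 h to 45 h was taken from the read count plus 0.5, divided by the stated total of the library. All kept sequences of a component entered when 1 or more lay at a ratio of at least 2 and 1 or more at 0.5 or less. This gave 662 kept sequences. The same components hold 76 further sequences with fewer reads, which were not used for ratios of single sequences. The sequences were thus chosen by the 45 h and 57 h read counts, and every comparison of these libraries is given below as a description only.

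All cells were of strain UTEX2341, given as Neodesmus pupukensis in the labels and as Chlorella minutissima in the design text. Cells grown fed-batch in shaken flasks were harvested at 14, 45, 57 and 88 h, and 1 library of total RNA stands for each time, with no treatment or genotype that differs between them. The series set out to relate the expression of key enzymes to the yield of lipid during growth. Because each time has 1 library, no difference has a replicate check, no p-value was calculated, and 95% intervals cover counting error only. In a bulk culture, fewer cells that make a transcript and less of it per cell cannot be told apart.

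A component in a transcriptome put together without a genome gathers sequences that share stretches of bases. It can hold splice forms of 1 gene, transcripts that differ in where they start or end, alleles, members of a gene family, or partial and joined transcripts. Alternative splicing and alternative ends let 1 gene give several RNAs whose levels need not follow each other, and green algae use both, retained introns included. The files pair no identifier with a name, role or place in a genome, so the sequences are named here by identifier and no base sequence is shown.

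The 38 components were 1.58% of the 2409 components with 2 or more kept sequences. The share was higher in larger components, where more sequences can meet the rule. It was 2 of 1282 components with 2 kept sequences, 13 of 715 with 3 to 5, 12 of 260 with 6 to 10, 5 of 119 with 11 to 24, and 6 of 33 with 25 or more. The median component here had 7 kept sequences, and the range was 2 to 176. The 6 components of 25 or more, called large below, held 443 of the 662 sequences, or 66.9%, and the other 32 components held 219. Pooled over the large components, sequences had medians of 13, 19, 21 and 22 reads in the 14, 45, 57 and 88 h libraries, against 471, 488, 393 and 400 reads in the 32 smaller components. Among the large ones comp198_c0 stood apart, with medians of 597.5, 867, 1673 and 1226 reads. Together the 662 sequences took 1.86, 2.15, 4.99 and 4.39% of the deposited counts in the libraries of 14, 45, 57 and 88 h. Without comp198_c0 the shares were 1.574, 1.414, 1.997 and 2.227%.

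Of the 662 sequences, 135 were higher by 2-fold or more at 57 h than at 45 h, 140 were lower by as much, and 387 lay between. Over all 13963 kept sequences, the shares were 11.8% higher and 41.6% lower. The higher sequences had a median ratio of 2.79 and the lower ones a median ratio of 0.374, and 32 and 28 of them passed 4-fold. In 17 components a single sequence was higher, in 17 a single sequence was lower, and in 5 both sets held 1 sequence. In 9 components no kept sequence lay between. Just inside the 2-fold lines were comp1610_c0_seq6 at a ratio of 2.001, with 575 reads at 57 h against 281 at 45 h, and comp525_c0_seq7 at 0.4997, with 109 against 214 reads. Just outside were comp1909_c0_seq33 at 1.997, with 25 reads at 57 h against 12 at 45 h, and comp1777_c0_seq75 at 0.504, with 44 against 86 reads.

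The difference within a component does not depend on how the libraries are scaled, but membership does. The median log2 ratio of all kept sequences was -0.71 on the deposited scale, so the typical sequence was lower at 57 h. Measured from this median, the highest sequence of each of the 38 components was at least 2-fold up, while the lowest sequence was at least 2-fold down in 17. With TMM scaling, which places the typical sequence at no change, 51 components met the rule and 17 of them were among the 38. The gap between the log2 ratios of the highest and the lowest sequence of a component cancels the library totals. At 57 h over 45 h its median was 3.53 and its range 2.09 to 7.89.

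**Figure D1:**
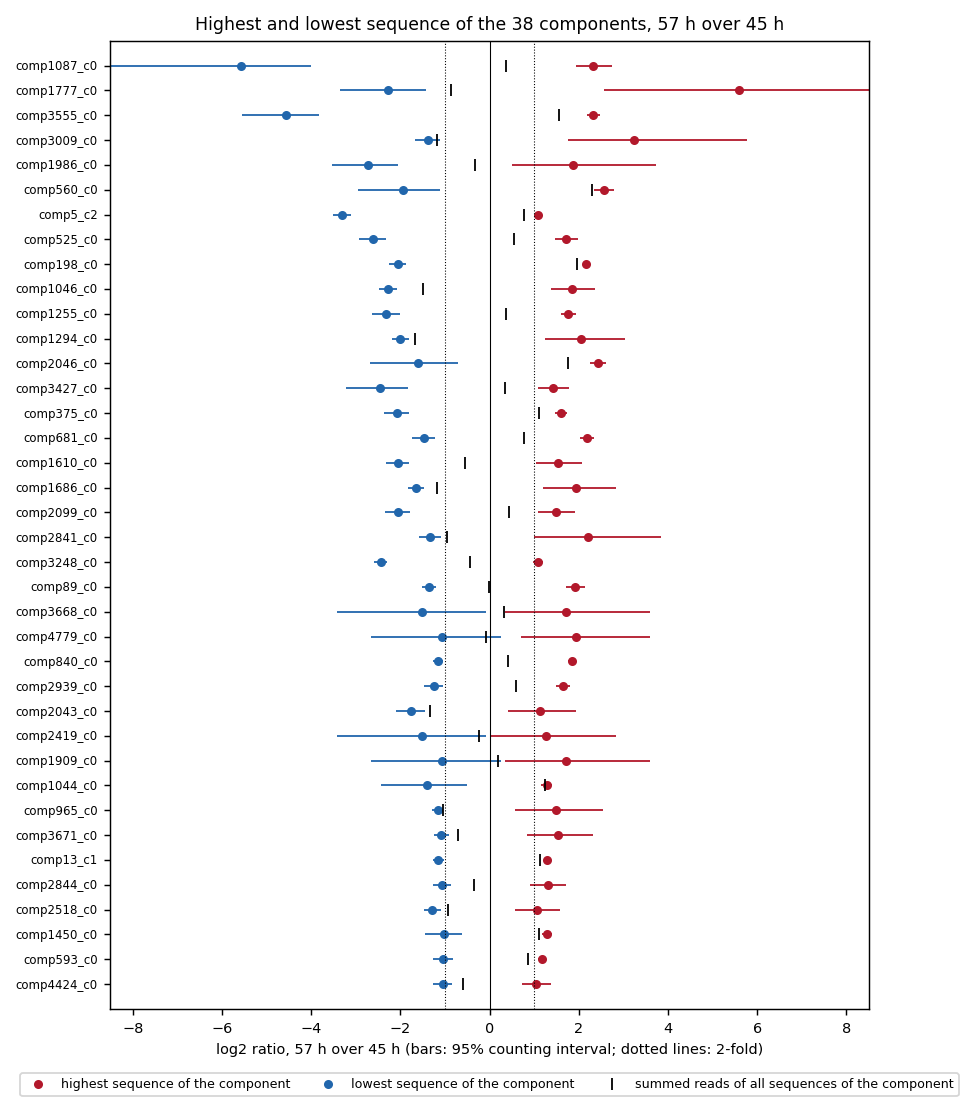
Each row is 1 of the 38 components, ordered by the gap between its extreme sequences. The x axis is the log2 ratio of 57 h over 45 h, red points are the highest and blue points the lowest sequence with 95% counting intervals, cut off at the plot edge for comp1087_c0 and comp1777_c0, and black ticks are the summed reads of the component. Both intervals lie on their own side of no change in 36 components, and wholly beyond 2-fold in 22, with no allowance for picking the extremes. The red point of comp1777_c0 rests on 0 reads at 45 h and its place is set by the pseudocount of 0.5 reads.

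The interval of the lowest sequence reached no change in 2 components, comp1909_c0 and comp4779_c0. Each interval is for a single sequence and makes no allowance for picking the highest and the lowest of up to 176 sequences. The intervals therefore cannot show that counting error is excluded in the other components. In comp2419_c0 they ended only just short of no change, at log2 ratios of 0.005 and -0.082. In 22 components both intervals lay wholly beyond 2-fold. In 5 components, comp1087_c0, comp1294_c0, comp1777_c0, comp198_c0 and comp3555_c0, the highest and the lowest sequence were each past 4-fold in opposite directions.

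The 14 h and 88 h libraries took no part in choosing the sequences, so they show whether the opposite directions are also present between other libraries. The order of the extreme sequences, which does not depend on scale, was kept in most components. In 88 h over 14 h the gap kept its sign in 36 of 38 components and had a median of 3.22, with a range of -1.31 to 9.30. It was at least 2-fold in the same sense in 32 components, or 31 with comp1777_c0_seq1, which had 0 reads at 14 h, set at the 3 reads that a count of 0 allows. No gap is given for other components, so these counts have no background. Outside the 38 components, too, 76.6% of sequences higher at 57 h were 2-fold higher in 88 h over 14 h. Of the lower ones there, 82.9% were 2-fold lower. On the deposited scale the highest sequence was above no change in 35 components and the lowest below it in 35. In 22 components, at least 1 kept sequence was again 2-fold higher and at least 1 was 2-fold lower. Over all components with 2 or more sequences above the floor in these libraries, 1.99% held both directions. That share is not a matched background. The 38 components were chosen for holding both directions at 57 h over 45 h, and they are larger than most. Of the 16 among the 38 that did not hold both directions again, 5 held 2-fold lower sequences only, 8 held 2-fold higher ones only and 3 held neither. With TMM scaling 16 of the 38 components, in place of 22, held both directions, so this count depends on the scale.

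For most single sequences with a 2-fold difference the 14 h and 88 h libraries gave a similar answer, but not in every component. Of the 135 sequences higher at 57 h, 101 were higher by 2-fold or more at 88 h than at 14 h and 1 was lower by as much. Of the 140 lower ones, 79 were lower by 2-fold or more, 25 were within 2-fold and 36 were higher by that much, and all 36 belong to comp1777_c0. Without that component 79 of 104, or 76.0%, were lower and 0 were higher. For the higher sequences the share was close to the background of sequences outside the 38 components. For the lower ones it was below that background, even without comp1777_c0. Outside the 38 components, 76.6% of the 1517 sequences higher at 57 h were 2-fold higher in 88 h over 14 h. Of the 5675 lower ones there, 82.9% were 2-fold lower. Over all 38 components the shares of the members, 74.8% and 56.4%, were below this background. Large components with few reads differed in their totals past 2-fold, which do not follow single sequences. In comp1909_c0, 9 sequences were 2-fold higher at 57 h over 45 h, and 2 of 81 at 88 h over 14 h. In comp3668_c0 there were 4 at the first comparison and 1 of 21 at the second. In comp1986_c0, 22 were higher and 22 lower at the first, and 84 and 21 of 172 at the second. In comp2419_c0, 1 was higher and 5 lower at the first, and 0 and 10 of 34 at the second.

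**Figure D2:**
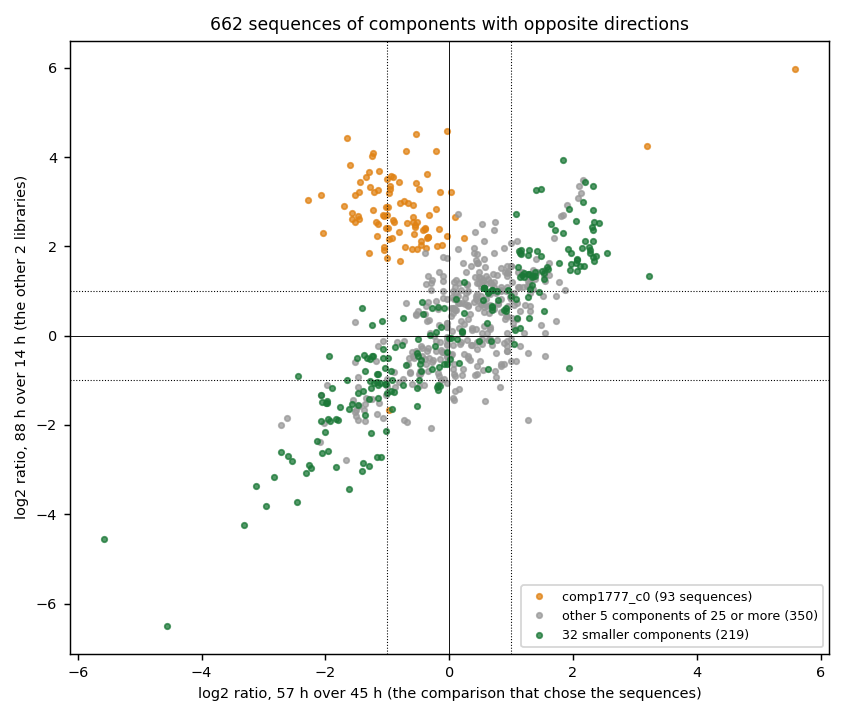
Each point is 1 of the 662 sequences, with the log2 ratio of 57 h over 45 h on the x axis and that of 88 h over 14 h on the y axis. Dotted lines mark 2-fold, orange marks comp1777_c0, grey the other 5 large components and green the 32 smaller ones. Green points run from the lower left to the upper right, while the orange cloud of comp1777_c0 sits at the upper left.

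Across the 219 sequences of the 32 smaller components the Spearman correlation of both ratios was 0.913, and across the 443 sequences of the 6 large components it was 0.0176. Sequences of a component may share reads and were chosen for extreme values of 1 of the ratios, so these are descriptions only. The large components also lay at different levels, with a median log2 ratio of 88 h over 14 h of 2.69 in comp1777_c0 and -0.82 in comp2419_c0. The pooled 0.0176 thus does not describe agreement within a component. In the 32 smaller components, 65 of 76 higher sequences and 55 of 73 lower sequences were 2-fold or more apart in the same sense at 88 h over 14 h. These were 85.5% and 75.3%, against 76.6% and 82.9% outside the 38 components.

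Over all 662 sequences, 645 passed the floor of 10 reads in 88 h and 14 h, and 273 of these were higher by 2-fold or more and 105 lower. Of all sequences, 14.3% were higher and 44.2% lower. The members had a median log2 ratio of 0.66, against -0.79 over all sequences. The rule asks each component for a sequence higher at 57 h, and most such sequences were also higher in 88 h over 14 h. A surplus of higher members may thus follow in part from the choice. With TMM scaling the lower members numbered 44. Much of the excess of higher sequences lay in 2 components, comp1777_c0 with 92 and comp1986_c0 with 84 of them. In the 32 smaller components 74 of 218, or 33.9%, were higher and 65, or 29.8%, lower.

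At the other steps fewer sequences of the smaller components differed by 2-fold. Each shares 1 library with the comparison that chose the sequences. At 45 h over 14 h, 148 of 621 sequences were higher by 2-fold or more and 31 lower, against a background of 10.4% and 5.81%. In the 32 smaller components, 10 of 215 were higher and 15 lower. At 88 h over 57 h, 91 of 645 were higher and 19 lower, against a background of 2.09% and 1.11%, and 85 of the 91 belong to comp1777_c0. In the 32 smaller components 1 of 215 was higher and 1 lower. The median gap between the extreme sequences was -0.01 at 45 h over 14 h and -0.21 at 88 h over 57 h. These medians cover wide ranges, of -2.43 to 2.82 and of -3.59 to 0.70. At 45 h over 14 h the gap was at least 1 in 9 components and at most -1 in 6. At 88 h over 57 h it was at least 1 in 0 and at most -1 in 6.

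In many components the more abundant of both extreme sequences was not the same early and late. Per length, the highest sequence exceeded the lowest in 11, 9, 32 and 30 of the 38 components in the 14, 45, 57 and 88 h libraries. In 17 components the highest sequence was below the lowest at 14 h and 45 h and above it at 57 h and 88 h. In 7 it was the more abundant at all 4 times and in 6 the less abundant at all 4 times. The change of order between 45 h and 57 h follows in part from how the sequences were chosen. That between 14 h and 88 h, seen in 19 components, comes from libraries the rule did not use.

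**Figure D3:**
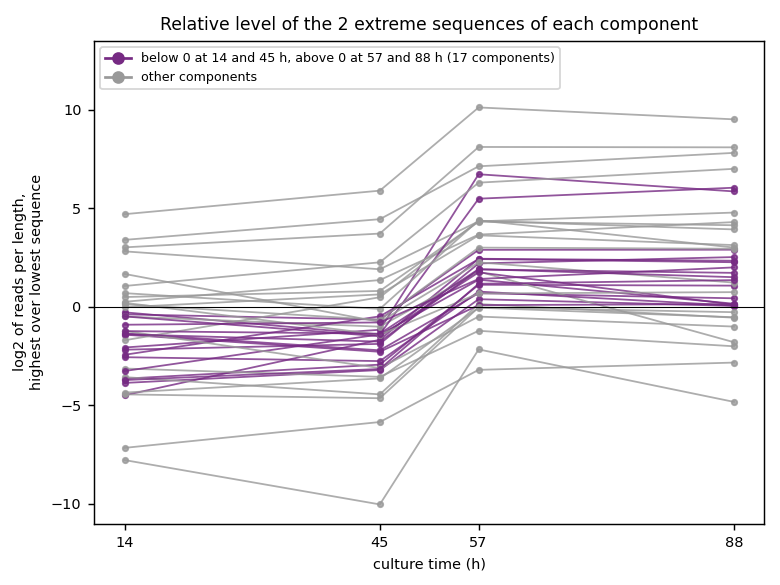
Each line is 1 of the 38 components. The y axis is the log2 ratio of reads per length, with 0.5 reads added, of its highest over its lowest sequence by the 57 h over 45 h comparison, and the x axis is culture time in h. Purple lines are the 17 components below 0 at both early times and above 0 at both late times, and most lines are nearly level between 57 h and 88 h.

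The ratio of summed reads lies, by arithmetic, between the ratios of the sequences summed, so it is given as a description. At 57 h over 45 h the sum over all sequences of a component was 2-fold or more higher in 8 components, 2-fold or more lower in 6 and within 2-fold in 24. With TMM scaling 19 sums were higher and 0 lower, so the direction of the sums depends on the scale. Reads that match several sequences may be counted on each of them, which weighs long shared stretches more than once in a sum. The share of a component's reads that sat on other sequences at 57 h than at 45 h had a median of 17.3% in the 38 components and 2.20% in 2370 others with 2 or more kept sequences, a difference the rule builds in. Between 88 h and 14 h, which the rule did not use, the same share had a median of 18.5%, with quartiles of 11.1% and 30.2%. The other components had a median of 2.27% there, with quartiles of 0.559% and 6.19%. The lower quartile of the 38 components lay above the upper quartile of the others. Larger components also hold more of the 38, and the part of component size in this was not tested.

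Only 2 components held exactly 2 kept sequences, comp13_c1 and comp3427_c0, and they show the change in its simplest form. In comp13_c1 the sequence of 3006 bases had 23400, 14356, 35626 and 40926 reads in the 14, 45, 57 and 88 h libraries. The sequence of 1458 bases had 1616, 1861, 856 and 722 reads at the same times. The long sequence was lowest at 45 h, the time at which the short sequence was highest. The short one took 2.35% of the component's reads at 57 h (exact binomial 95% interval 2.19 to 2.51%) and 11.5% at 45 h (10.99 to 11.98%). At 88 h over 14 h the log2 ratio was 0.86 for the long sequence and -1.11 for the short one.

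In comp3427_c0, named after its values were seen, the sequence of 605 bases had 64, 94, 257 and 232 reads at 14, 45, 57 and 88 h, and that of 1087 bases had 376, 121, 22 and 27. Their RPKM values, reads scaled by sequence length and stated library total, were 8.47, 13.1, 35.0 and 31.8 for the shorter and 27.7, 9.37, 1.67 and 2.06 for the longer sequence. The longer sequence was already lower at 45 h than at 14 h. The shorter one took 92.1% of the component's reads at 57 h (88.30 to 94.99%) and 43.7% at 45 h (37.0 to 50.6%). It took 89.6% at 88 h (85.20 to 93.02%) and 14.5% at 14 h (11.4 to 18.2%).

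The most abundant of the components was comp198_c0, with 26 sequences, with 21 higher by 2-fold or more, 2 lower and 3 in between at 57 h over 45 h. Its highest sequence, comp198_c0_seq26, of 693 bases, had an RPKM of 806, 2812, 12556 and 8958 in the 14, 45, 57 and 88 h libraries. The lowest, comp198_c0_seq18, of 2115 bases, had an RPKM of 31.0, 47.3, 11.3 and 12.3. Its neighbour in direction, comp198_c0_seq19, of 2022 bases, had 26.9, 44.1, 11.2 and 12.5. Both lower sequences were thus highest at 45 h, while the other 24 peaked at 57 h. At 88 h over 14 h the log2 ratio was 3.47 for comp198_c0_seq26 (counting interval 3.44 to 3.51) and -1.34 for comp198_c0_seq18 (-1.53 to -1.15). The summed reads of the component were 47421, 118589, 470146 and 332943 at 14, 45, 57 and 88 h, so the 2 lower sequences held a very small part of them.

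In comp5_c2, of 5 sequences, 3 were lower at 57 h by 2-fold or more, 1 was higher by that much and 1, at a log2 ratio of 0.92, lay between. The highest, comp5_c2_seq5, of 1049 bases, had 24813, 16553, 35897 and 42629 reads in the 14, 45, 57 and 88 h libraries. The lowest, comp5_c2_seq3, of 1868 bases, had 5469, 2245, 231 and 278 reads. The first was lowest at 45 h, and the second was lower at each late time than at either early time. The log2 ratio of 57 h over 45 h was 1.09 (1.06 to 1.11) for the first and -3.31 (-3.51 to -3.12) for the second. At 88 h over 14 h no sequence of this component was 2-fold higher, with 0.83 for comp5_c2_seq5, and 3 were 2-fold lower, with -4.25 for comp5_c2_seq3.

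The widest gap in 88 h over 14 h, 9.30 on the log2 scale, was in comp3555_c0. Its sequence of 4980 bases, comp3555_c0_seq1, had 486, 437, 2238 and 3293 reads at 14, 45, 57 and 88 h. Its sequence of 1345 bases, comp3555_c0_seq4, had 1258, 312, 13 and 13 reads. The short sequence was the more abundant per length at 14 h and 45 h, with 74.9 and 19.5 RPKM, and the less abundant later, with 0.797 and 0.800 RPKM. The log2 ratio of 88 h over 14 h was -6.49 (-7.46 to -5.77) for the short and 2.81 (2.67 to 2.95) for the long sequence.

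The widest gap in 57 h over 45 h, 7.89, was in comp1087_c0, with 21 sequences. That of comp1777_c0 was close, at 7.87, and depends on the pseudocount. The lowest sequence of comp1087_c0, comp1087_c0_seq21, of 355 bases, had 134, 116, 2 and 5 reads in the 14, 45, 57 and 88 h libraries. Its highest, comp1087_c0_seq19, of 448 bases, had 40, 65, 333 and 401 reads. The log2 ratio of 57 h over 45 h was -5.57 (-8.95 to -4.00) for the lowest and 2.32 (1.94 to 2.73) for the highest. The early and late pairs of libraries did not overlap for either sequence. Most reads of this component lay on longer sequences with less wide ratios, such as comp1087_c0_seq1, of 10960 bases, at 2132, 2932, 4444 and 4340 reads, chosen after its values were seen. Its summed reads were 25328, 23706, 31192 and 28504.

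In comp1046_c0, of 13 sequences, 8 were lower, 4 lay between and 1 was higher at 57 h. The 8 lower ones were 4664 to 9426 bases long and had log2 ratios of -2.27 to -1.37. The single higher sequence was the shortest of the component, at 594 bases. It had 11, 45, 166 and 169 reads at 14, 45, 57 and 88 h, against 2030, 1140, 241 and 263 for the lowest sequence, comp1046_c0_seq12. At 88 h over 14 h the log2 ratio was 3.93 (3.11 to 5.02) for the short sequence and -2.90 (-3.09 to -2.71) for comp1046_c0_seq12.

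In comp525_c0, of 8 sequences, the highest, comp525_c0_seq5, of 2071 bases, had 131, 167, 561 and 656 reads. The lowest, comp525_c0_seq8, of 866 bases, had 724, 624, 104 and 107 reads. Both had similar values within the early and within the late pair of libraries. The log2 ratio of 88 h over 14 h was 2.37 (2.10 to 2.65) for the first and -2.70 (-3.02 to -2.41) for the second.

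**Figure D4:**
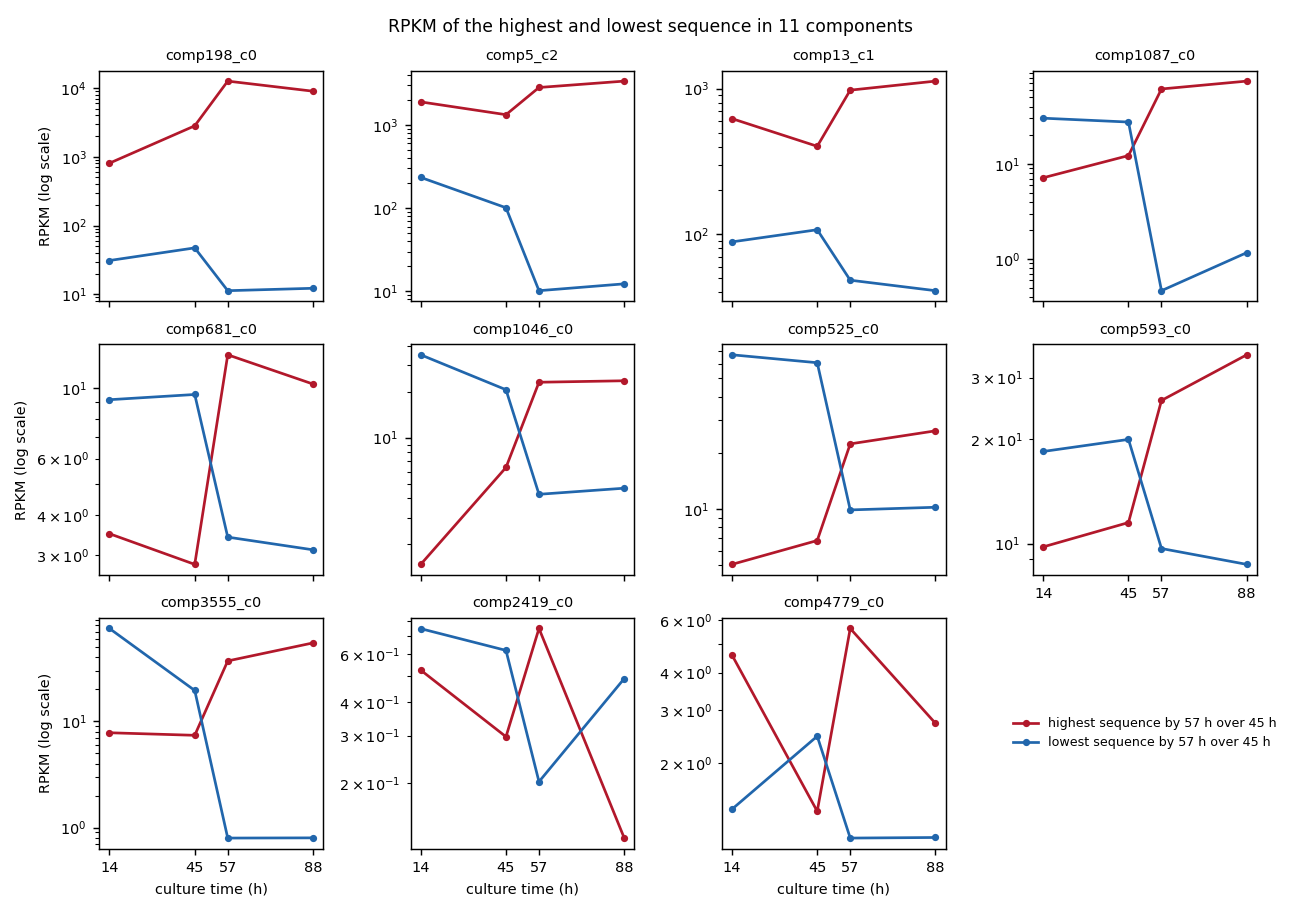
RPKM on log axes against culture time in h for the highest (red) and lowest (blue) sequence, by 57 h over 45 h, of the 11 components that the naming rule picked. In comp1087_c0, comp681_c0, comp1046_c0, comp525_c0, comp593_c0 and comp3555_c0 the lines cross between 45 h and 57 h and stay crossed at 88 h, while comp2419_c0 and comp4779_c0 rest on few reads and have the other order in 88 h over 14 h.

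The lengths of the higher and the lower sequences did not overlap in 32 components. All higher sequences were shorter than all lower ones in 21 and longer in 11, and in 29 components at least 1 of the sides is a single sequence. A side of 1 sequence makes such a separation easy to meet. In the 5 components with 1 sequence on each side, any difference in length meets it. The 32 are therefore a description and do not show that length goes with direction. Of the highest sequences 13 were under 1000 bases, and of the lowest sequences 5. The share under 1000 bases was 13.3% of the 135 higher sequences, 12.1% of the 140 lower ones and 2.33% of the 387 between, against 17.0% of all kept sequences and 10.7% of those in components with 2 or more. In the 32 smaller components the shares were 21.1% of the higher, 12.3% of the lower and 4.29% of the sequences between.

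In 2 components the length differences themselves recurred. The component comp593_c0 held 4 long sequences of 11856 to 12314 bases and 4 short ones of 2224 to 2682 bases. Each long sequence had a short counterpart exactly 9632 bases shorter. Steps of 212 and 246 bases occurred in 2 pairs of long and 2 pairs of short sequences each. The 4 long sequences were all 2-fold higher at 57 h than at 45 h, with log2 ratios of 1.12 to 1.17. The 4 short ones had log2 ratios of -1.04 to -0.89, with 1 of them past 2-fold. At 88 h over 14 h the log2 ratios were 1.83 to 1.92 for the long and -1.272 to -0.9998 for the short sequences. The steps of 212 and 246 bases thus went with differences in log2 ratio that were small beside those between long and short sequences. The 4 long sequences had nearly the same counts, 3779 to 3794 reads at 57 h, against 1651 to 1706 at 45 h, and are not 4 independent observations.

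The component comp681_c0 had a like layout, with 10 long sequences of 12685 to 13814 bases and 5 short ones of 3967 to 4929 bases. The most frequent difference in length between a long and a short sequence was 8885 bases, in 5 pairs. A step of 112 bases occurred in 4 pairs of long and 2 pairs of short sequences, and a step of 120 bases likewise. Of the long sequences 8 were 2-fold higher and 2 lay between at 57 h over 45 h, and of the short ones 4 were 2-fold lower and 1 lay between. The 8 higher sequences had 532 to 624, 435 to 492, 1837 to 2014 and 1624 to 1741 reads in the 14, 45, 57 and 88 h libraries. The 4 lower sequences had 392 to 455, 377 to 449, 147 to 174 and 149 to 174 reads. In both sets the early and late pairs of libraries did not overlap. The 2 longest sequences stayed level, with a log2 ratio of 0.21 each at 57 h over 45 h.

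The clearest exception to the early and late division, comp1777_c0, was singled out after its values were seen. It has 95 sequences, of which 93 were kept, 36 lower, 55 between and 2 higher at 57 h over 45 h. Its median sequence had 10, 33, 19 and 64 reads in the 14, 45, 57 and 88 h libraries, and its median RPKM was 0.287, 0.967, 0.544 and 1.75. Of the 93 sequences, 87 were higher at 45 h than at 14 h, lower at 57 h than at 45 h and higher at 88 h than at 57 h. The 88 h library was the highest of the 4 for 92 sequences and the 14 h library the lowest for 87. At 45 h over 14 h, 82 of the 88 sequences above the floor were at least 2-fold higher, and at 88 h over 57 h 85 of 93.

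This up, down and up course was rare elsewhere. A sequence at least 2-fold higher at 45 h than at 14 h, lower at 57 h than at 45 h, and at least 2-fold higher at 88 h than at 57 h was found 78 times among the 93. It was found 0 times among the other 569 sequences of the 38 components and 99 times among 13301 kept sequences outside them, or 0.744%. That course was defined after the values were seen, and sequences of 1 component may share reads, so the 78 are not independent.

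The lowest sequence of comp1777_c0, comp1777_c0_seq90, of 561 bases, had 12, 59, 12 and 98 reads at 14, 45, 57 and 88 h. A sequence with more reads and the same course, comp1777_c0_seq57, of 2640 bases, had 47, 408, 176 and 749 reads. Both had fewer reads at 57 h than at 45 h and the most at 88 h. The 2 sequences that went the other way, comp1777_c0_seq1 and comp1777_c0_seq2, are the 2 longest, at 4929 and 4556 bases. The first had 0, 0, 24 and 30 reads and the second 1, 2, 23 and 27. The counting interval of the log2 ratio of comp1777_c0_seq1 has no upper end, and its lower end was 2.56 at 57 h over 45 h and 2.98 at 88 h over 14 h. A further sequence stood apart, comp1777_c0_seq49, of 2988 bases, with 1931, 1303, 680 and 590 reads. It had the most reads of the component at 14, 45 and 57 h, and it was the only sequence of it that was 2-fold lower at 88 h than at 14 h.

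**Figure D5:**
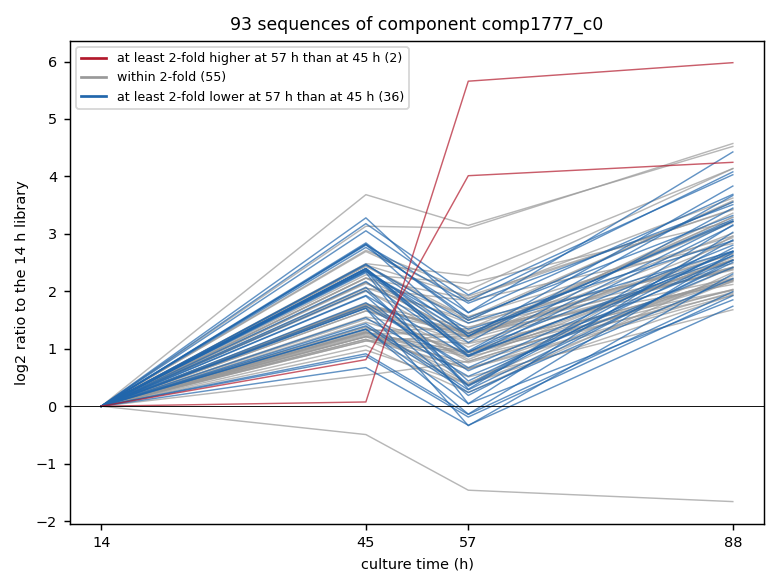
The 93 kept sequences of comp1777_c0, with culture time in h on the x axis and the log2 ratio to the 14 h library, with 0.5 reads added, on the y axis. Blue lines are the 36 sequences at least 2-fold lower at 57 h than at 45 h, grey lines the 55 within 2-fold and red lines the 2 higher. Nearly all lines go up to 45 h, down to 57 h and up to 88 h, while the 2 red lines climb at 57 h and the line of comp1777_c0_seq49 runs below 0. The height of the upper red line depends on the pseudocount.

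The order of the extreme sequences was turned round in 88 h over 14 h in 2 components, both with few reads. In comp2419_c0 the highest sequence, comp2419_c0_seq42, had 13, 7, 18 and 3 reads at 14, 45, 57 and 88 h, and the lowest, comp2419_c0_seq38, had 19, 15, 5 and 12. In comp4779_c0 the highest, comp4779_c0_seq6, of 367 bases, had 21, 6, 25 and 12 reads and the lowest, comp4779_c0_seq5, of 515 bases, had 9, 15, 7 and 7. At so few reads the order was not resolved, since the counting intervals of 88 h over 14 h overlapped within each pair. Of the other large components, 3 rested on low counts, with a median of 15 to 23 reads per time for comp1909_c0, 11 to 13 for comp3668_c0 and 10 to 25 for comp1986_c0.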

How the data were processed

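Each library is described by 1 file of 14905 sequences. The authors deposited a read count per sequence, the library total, the sequence length and an RPKM value, per the file headers. The submitters' processing notes name BWA, with no version number. What the reads were aligned to, how it was assembled, which reads were filtered, whether strand was used and how reads with several matches were handled: not given in the sources used here. Stated totals were 12495251, 11874560, 12130407 and 12077745 reads at 14, 45, 57 and 88 h. The deposited counts sum to 1.27 to 1.36 times these. The cause was not tested. The deposited RPKM equals the count scaled by length and stated total.

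Log2 ratios used reads plus 0.5 over the stated total, with a floor of a mean of 10 reads. Intervals are exact conditional binomial intervals at 95%. They cover counting error only, make no allowance for picking extreme sequences and are too narrow where reads are copies or shared. No test was made, since each time has 1 library. A trend across times could have been fitted and was not. Ratios, intervals and the component rule were tested on simulated data with independent counts. Changes were placed only in sequences with more reads than most members have. The rule was therefore not checked for members with few reads or with shared reads. The named components are the 8 with the most reads, the 6 with the widest gap among those whose extreme sequences both average at least 50 reads, and those with the order turned round. Their highest and lowest sequences are named, and other names were chosen after values were seen. The members, lists and alternatives were chosen with earlier results of these data known. No gene list could be used, as no identifier carries a gene name. Scaling factors came from edgeR 4.0.16 in R 4.3.3. All else was computed in Python 3.11.15 with pandas 2.3.3, scipy 1.17.1 and numpy 2.4.6, and plots were drawn with matplotlib 3.10.9.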

Additional observations from a re-analysis of the deposited data

How the results depend on the processing

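Of 147 values under 12 alternatives, 93 stayed within 1.5 times the reported count, or within 0.1 for the median gap. The others follow, as higher and lower sequences unless stated. Sequences at 57 h over 45 h are of the components each alternative selects, those at other steps are of the 662 reported sequences, and summed components are of the 38. TMM scaling and median-of-ratios factors each gave 249 higher members at 57 h over 45 h, and 44 and 43 lower ones at 88 h over 14 h. With both, 19 summed components were higher and 0 lower at 57 h over 45 h. They gave 51 components each, 17 of them among the 38. A similar count thus need not mean the same components. With the sum of deposited counts as library size there were 38 components, 34 of them among the 38 reported. With the total without the 10 most abundant sequences there were 36, 32 of them among the 38. A floor of 50 reads left 24 components with 182 sequences (71 and 54), and 112 higher at 88 h over 14 h, 30 and 14 at 45 h over 14 h, and 34 and 0 at 88 h over 57 h. With the whole counting interval beyond 2-fold there were 22 components with 274 sequences (70 and 58), and 165 higher at 88 h over 14 h, 52 and 10 at 45 h over 14 h, and 52 and 0 at 88 h over 57 h. A 1.5-fold line gave 96 components with 1401 sequences (360 and 372), 224 and 76 at 45 h over 14 h, and 71 lower at 88 h over 57 h. A 4-fold line gave 5 components with 148 sequences (11 and 12), 118 and 30 at 88 h over 14 h with 8 components split, 41 and 1 at 45 h over 14 h, and 33 and 1 at 88 h over 57 h. A pseudocount of 5 reads left 4 lower at 88 h over 57 h. Without the 6 large components, an alternative chosen after seeing the data, 219 sequences were left (76 and 73), with 74 and 65 at 88 h over 14 h, 10 and 15 at 45 h over 14 h, and 1 and 1 at 88 h over 57 h. Counting 1 sequence for each group whose counts lay within 5% in all libraries, also chosen after seeing the data, left 38 components. Leaving out a library would leave a time with no data. No paired analysis was possible because no time has a replicate. Depth limits the large components other than comp198_c0 most.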
